A study of Cricetulus griseus with 8 samples.

Results

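Genes that move and store zinc, copper, iron and magnesium were followed in a phagocytic line of the Chinese hamster, LR73, with and without apoptotic cells to engulf. The members were all table rows named as Slc30, Slc31, Slc39, Slc40 or Slc41 genes, together with 16 single genes of metal uptake, buffering, storage and sensing. This rule used symbols only, was set with earlier results of these data known, and found 43 of 26776 named genes. Ftl1, ferritin light chain, is in the rule and had no row under that symbol. A mean of at least 10 normalized counts over the 8 libraries was met by 34 members, which were tested, as were 13494 genes in all.

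RNA was sequenced from 4 libraries of LR73 cells alone and from 4 libraries of LR73 cells cultured together with apoptotic Jurkat cells, a human T cell line. Both groups are of the same hamster line, grown in alpha-MEM with serum. The Jurkat cells had received UV-C light (1500 mJ in the labels) and a further 4 h of culture before they met the phagocytes. The libraries of a group are called biological replicates in the series text. Nothing in the labels tells whether they came from separate cultures, so the p-values measure only the spread between these libraries, which may be technical.

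Metal ions cross membranes through dedicated carriers. ZIP proteins (Slc39 genes) bring zinc into the cytosol, and ZnT proteins (Slc30 genes) take it out of the cell or into vesicles and organelles. Copper enters through Ctr1 (Slc31a1) and is handed by small chaperones to the pumps Atp7a and Atp7b or to superoxide dismutase. Iron bound to transferrin enters through the transferrin receptor Tfrc, leaves the endosome through Slc11a2, is stored in ferritin and exits through ferroportin, Slc40a1. The iron regulatory proteins, encoded by Aco1 and Ireb2, stabilise Tfrc mRNA and block ferritin translation when iron is scarce. Phagocytes that digest a dying cell also take in the metals and heme of that cell.

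Depth was 22.7 to 29.7 M reads per library. Alone library 1 was unlike the rest of its group: chi-square per degree of freedom was 16.6 to 31.1 for its pairs and 1.71 to 3.28 for the other alone pairs. The co-culture pairs gave 1.55 to 2.6. Of the fibroblast markers, Vim, Fn1 and Sparc were abundant, while Thy1 had 0 reads and Col1a1 and Col1a2 were below 4 normalized counts in every library, and the epithelial gene Cdh1 stood at 191 to 254. Among 13 T cell markers, Cd2, Cd3d and Cd3g had 0 reads in all libraries. The whole list summed to 209.3 to 283 normalized counts alone and 186.8 to 223.4 in co-culture, nearly all of it from Lat (183.1 to 250.7 and 168.2 to 192.4) and Cd28 (24.18 to 33.1 and 13.19 to 19.75). The 11 T cell markers below the filter summed to 1.67 to 4.06 alone and 5.5 to 13.3 in co-culture (12 and 40 reads). The part of these markers in the results was not tested. How reads that fit both hamster and human genes were assigned is not given in the sources used here.

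Most metal genes stood at nearly the same level in LR73 cells with and without apoptotic cells. The copper carrier gene Slc31a2 fell by 0.52 on the log2 scale, and none of the other 33 tested members passed the threshold in either direction. The threshold was a Benjamini-Hochberg adjusted p under 0.05 over all 13494 genes, by limma on log2(normalized count + 1). Counts of 0 higher and 1 lower compare with a background of 6.36% of all tested genes called higher and 5.31% called lower, so 2.94% of the tested members were called against 11.7% of all genes. At an unadjusted p under 0.05, limma had 3 members higher and 3 lower, 8.82% each, beside 13.7% and 12.8% of all genes. Of the count tests on the recovered reads, edgeR called 0 members higher and 1 lower, beside 6.19% and 5.38% of all genes. DESeq2 called 2 higher and 1 lower, beside 6.65% and 5.56%. Tfrc and Slc39a10 were the 2 members called higher in the authors' deposited table, and Slc31a2 the 1 called lower, beside 6.71% and 5.48% of the genes with an adjusted p there. In RNA from whole cultures, fewer cells that express a gene and less of its RNA per cell cannot be told apart.

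The spread of the changes was narrow. The median log2 fold change of the tested members was 0.001, the same as the 0.001 of all genes, with 18 members above 0 and 16 below. The median size of the change, whatever its sign, was 0.06 for members and 0.10 for all genes. The 95% interval of the fold change lay within 1.25-fold either way in 25 of 34 members (73.5%), and in 63.3% of all genes. It lay within 1.5-fold in 33 members, all but Slc31a2. The groups did not overlap in 7 members, 20.6% of those tested, beside 21.2% of all tested genes.

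**Figure D1:**
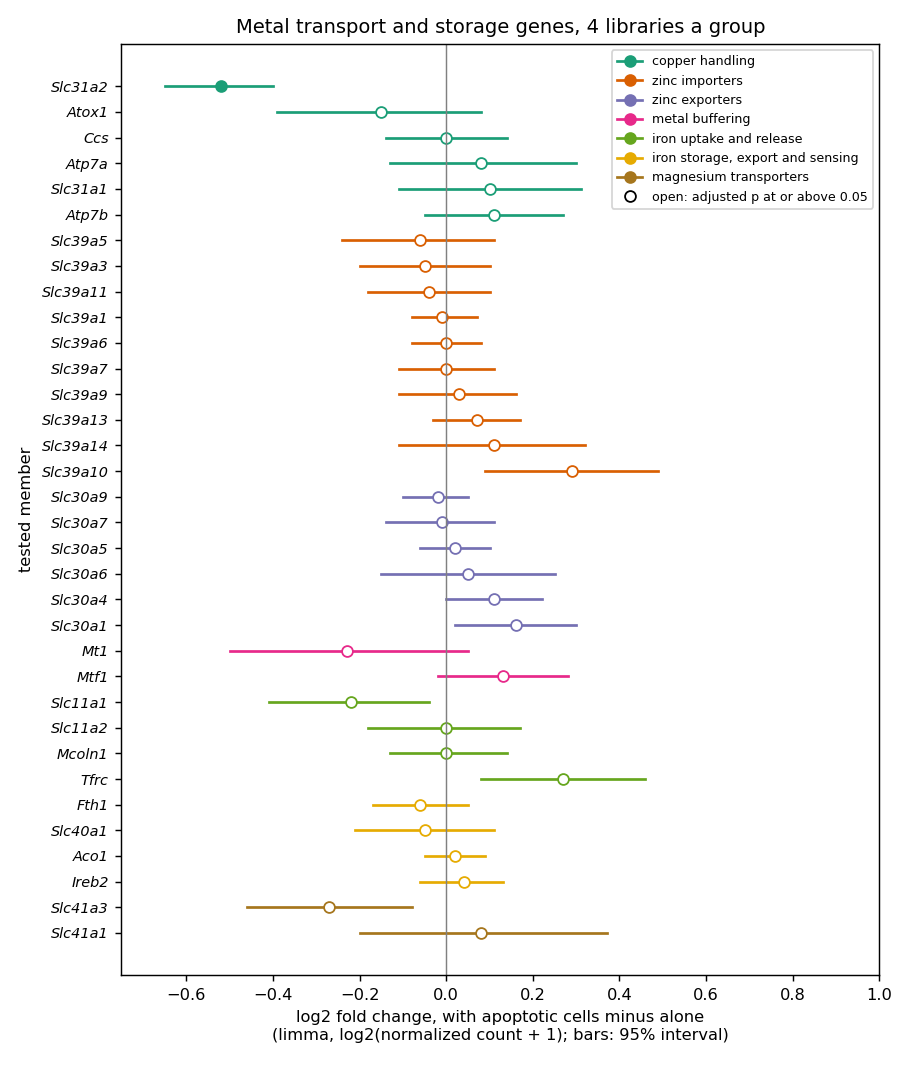
Log2 fold change (with apoptotic cells minus alone) of the 34 tested members, grouped by role, with 95% intervals from limma (x axis, log2 scale). Filled points have an adjusted p under 0.05, which holds for Slc31a2 at -0.52 and for no other member.

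Slc31a2 encodes Ctr2, a small relative of the copper importer Ctr1 that sits largely on inner membranes and is known to affect the processing of Ctr1. In cells alone its level was 472, 506, 447 and 479 normalized counts in libraries 1 to 4. With apoptotic cells it was 317, 342, 322 and 343. Every co-culture library lay below every alone library, and alone library 1 sat within its group. With 4 libraries a group, the means ± SD were 476 ± 24.5 and 331 ± 13.5 normalized counts. The level fell by 30.3%, with an interval of -36.2 to -24% (limma adjusted p = 0.000348, SE 0.06 for the log2 fold change). The read totals behind these means were 2007 and 1274. The fold change ran from -0.55 to -0.49 when any single library was left out, with limma adjusted p-values of 6.37e-07 to 0.00266. In the authors' deposited table the same gene had a log2 fold change of -0.46 and an adjusted p of 1.73e-09.

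Its sister gene Slc31a1, which encodes the high-affinity importer Ctr1 of the cell surface, had 648, 893, 869 and 917 normalized counts in cells alone. In the co-cultures it had 897, 876, 901 and 855. The groups overlapped, and alone library 1 was the lowest of all 8. The log2 fold change was 0.10 (SE 0.10, interval -0.11 to 0.31, limma adjusted p = 0.545), and it was -0.02 without alone library 1. Within a library the log2 ratio of Slc31a2 to Slc31a1 reads was -0.46, -0.82, -0.96 and -0.94 alone. It was -1.50, -1.36, -1.48 and -1.32 in co-culture. The ranges did not overlap, and the mean ratio went from -0.79 ± 0.23 to -1.41 ± 0.09 (SD, n = 4 per group), a description to which no test was applied. The difference was -0.62, and -0.51 without alone library 1. The ratio does not depend on the scaling between libraries, and it reads no absolute level, since the lengths of the transcripts were not used.

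The other copper genes showed no such separation. Atp7a, the copper pump of the trans-Golgi network, had 459.6, 619, 531 and 574 normalized counts alone. In co-culture it had 575, 555, 659 and 521, and its log2 fold change was 0.08, with an SE of 0.10 (limma adjusted p = 0.613). Atp7b, its relative best known from liver, had means of 777 ± 81.8 and 837 ± 28.1 (log2 fold change 0.11, SE 0.07, limma adjusted p = 0.347). Alone library 1 was the lowest library for both pumps, and without it their log2 fold changes were 0.00 and 0.04. Ccs, the chaperone that loads copper onto superoxide dismutase, had means of 899.7 ± 77.2 and 898 ± 38.8 (log2 fold change -0.00, interval -0.14 to 0.14). Atox1, the chaperone that serves the pumps, had 408 ± 44 and 368 ± 50.6 (log2 fold change -0.15, SE 0.11, limma adjusted p = 0.391). Its co-culture libraries spanned 299 to 421 and its alone libraries 367 to 450.1, so the groups overlapped. Of the 6 copper genes, 1 fell and 5 did not pass, beside 11.7% of all tested genes called in either direction. A group of so few genes cannot be set apart from that share.

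**Figure D2:**
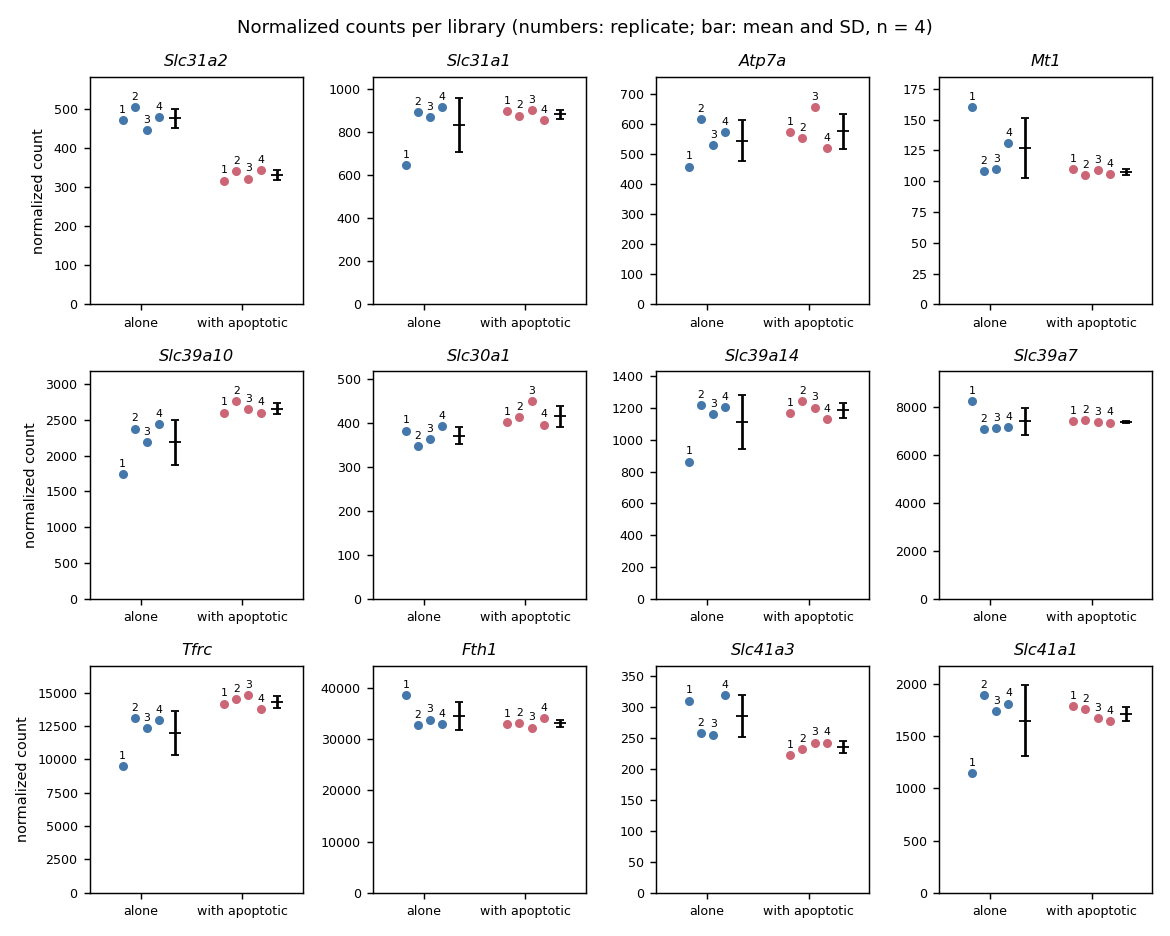
Normalized counts in each library (y axis, from 0; numbers are replicate numbers) for 12 members, with mean and SD of 4 libraries per group. Slc31a2 separates at 447 to 506 against 317 to 343, and in Slc31a1, Slc39a14, Tfrc and Slc41a1 alone library 1 is the lowest point.

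Zinc importers were the largest group, with 13 members in the table and 10 tested. None passed, beside 11.7% of all tested genes, and 5 fold changes were above 0 and 5 below, from -0.06 to 0.29. Slc39a10 encodes ZIP10, an importer of the cell surface. Its levels were 1739.6, 2379, 2188 and 2441 normalized counts alone. They were 2602, 2766, 2649.9 and 2604 in co-culture. Every co-culture library was above every alone library, and alone library 1 was the lowest. The means were 2187 ± 317 and 2655 ± 76.7, on the log2 scale a difference of 0.29 (SE 0.09, interval 0.09 to 0.49, limma adjusted p = 0.0627), just outside the threshold. Without alone library 1 the fold change was smaller, 0.19, and passed (SE 0.04, limma adjusted p = 0.000289). Alone libraries 2 to 4 had a mean of 2336 ± 132. It also passed without alone library 2 (0.34, limma adjusted p = 0.049) and without alone library 4 (0.35, limma adjusted p = 0.0463). With all libraries it passed by DESeq2 (0.28, DESeq2 adjusted p = 0.0315). In the authors' deposited table its log2 fold change was 0.23, with an adjusted p of 0.0284.

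The other importers lay close to 0. Slc39a7, the gene for ZIP7, which releases zinc from the endoplasmic reticulum, had 8237, 7068, 7092 and 7147 normalized counts alone. In co-culture it had 7384, 7428, 7347 and 7334. Alone library 1 was the highest, and the co-culture values lay between it and the other alone libraries (log2 fold change 0.00, interval -0.11 to 0.11). Slc39a1, a widely expressed surface importer, had 3429 ± 103 and 3406 ± 70.6 normalized counts (log2 fold change -0.01, interval -0.08 to 0.07). Slc39a3 had 363 ± 29.4 and 349 ± 14.7 (log2 fold change -0.05, SE 0.07), and -0.00 without alone library 1. Slc39a14 encodes ZIP14, which carries iron and manganese as well as zinc. It had 862, 1219.7, 1160.0 and 1204 normalized counts alone, and 1167, 1244, 1202 and 1131 in co-culture. On the log2 scale the change was 0.11 (SE 0.10, adjusted p by limma 0.516) and -0.01 without alone library 1. Slc39a5, Slc39a9 and Slc39a11, further tested importers, had log2 fold changes of -0.06, 0.03 and -0.04 and overlapping groups. Slc39a5 had its highest level in alone library 1, 0.37 above the other alone libraries on the log2 scale, and its change was 0.03 without that library.

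Slc39a6, the partner with which ZIP10 can pair, is given here after its values were seen. It had 1532 ± 35.4 normalized counts alone and 1531 ± 21.4 in co-culture (log2 fold change -0.00, interval -0.08 to 0.08). Slc39a13, an importer of the secretory pathway known from connective tissue and also chosen after its values were seen, had 1407 ± 70 and 1473 ± 49.6 (log2 fold change 0.07, SE 0.05, limma adjusted p = 0.378). It passed without alone library 1, at a fold change of 0.10 (limma adjusted p = 0.0481). Slc39a8, an importer of zinc and manganese, stood outside the rule because the table lists it under a LOC number. It had 1659, 1529, 1634 and 1596 normalized counts alone, and 1723, 1778, 1809 and 1721 in co-culture. No overlap was seen, and the log2 fold change, 0.13 with an SE of 0.04, lay next to the threshold (limma adjusted p = 0.0519). Without alone library 1 it was 0.15 and passed (limma adjusted p = 0.00208).

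Zinc exporters had 10 members in the table and 6 tested, none of which passed, beside 11.7% of all tested genes. Slc30a1 encodes ZnT1, the exporter of the plasma membrane, whose gene is switched on by zinc through the metal sensor Mtf1. It had 382, 347, 363 and 392 normalized counts alone, and 402, 412, 449.5 and 396 in co-culture. Alone library 4 and co-culture library 4 nearly met, with no overlap of the groups. Its log2 fold change was 0.16 (SE 0.06, interval 0.02 to 0.30, limma adjusted p = 0.124), and without alone library 1 it was 0.18 and passed (limma adjusted p = 0.0415). Slc30a4, the gene of a vesicular exporter, had 3110.1 ± 217 and 3352 ± 98 (log2 fold change 0.11, SE 0.05, limma adjusted p = 0.192), and its change was 0.06 without alone library 1. Slc30a6, whose product works with that of Slc30a5 in the early secretory pathway, had 308 ± 27.2 and 319.7 ± 35.7 (log2 fold change 0.05, SE 0.09). Slc30a5, Slc30a7 and Slc30a9, the last a mitochondrial exporter gene, had fold changes from -0.02 to 0.02 and overlapping groups.

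Metallothioneins are small proteins that bind zinc and copper, and Mtf1 is the transcription factor that induces their genes. Mt1 had 160.5, 108, 109.6 and 131 normalized counts alone, and 109.6, 105, 109 and 106 in co-culture. Alone library 1 was the highest, and the lowest alone libraries lay among the co-cultures. The log2 fold change was -0.23 (SE 0.12, interval -0.50 to 0.05, limma adjusted p = 0.272), or -0.11 without alone library 1. Mt2 had 1 read in all alone libraries and 1 in all co-cultures, too few to test. Mtf1 had 365, 435, 446 and 429 normalized counts alone, and 448, 464, 462 and 451 in co-culture. Without overlap of the groups, alone libraries 2 to 4 (437 ± 8.26) came close to the co-cultures (456 ± 7.84). Its log2 fold change was 0.13 (SE 0.07, limma adjusted p = 0.25) and, without alone library 1, 0.06 (SE 0.05, limma adjusted p = 0.418).

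Among the genes that take up iron or release it from endosomes and lysosomes, 4 of 5 were tested and none passed. Of all tested genes, 11.7% passed. Tfrc, the transferrin receptor, had 9500.4, 13109, 12308 and 12959 normalized counts alone. With apoptotic cells it had 14172, 14500.1, 14798 and 13774. Every co-culture library was above every alone library, and alone library 1 was far below the rest of its group. The means were 11969 ± 1682 and 14311 ± 439.7, on the log2 scale a difference of 0.27 (SE 0.09, interval 0.08 to 0.46, limma adjusted p = 0.0749), outside the threshold. Without alone library 1 the fold change was 0.16 and passed (SE 0.03, limma adjusted p = 6.72e-05), with alone libraries 2 to 4 at 12792 ± 425. By DESeq2 it passed with all libraries (0.26, DESeq2 adjusted p = 0.0457), and in the authors' deposited table it had 0.21 and an adjusted p of 0.0405.

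Slc11a2, the divalent metal transporter DMT1, had 1018, 1347, 1244 and 1314 normalized counts alone, and 1243, 1257, 1200.2 and 1181 in co-culture. Its log2 fold change was -0.00 (SE 0.08, interval -0.18 to 0.17), and -0.09 without alone library 1 (SE 0.04, limma adjusted p = 0.0786). Slc11a1 encodes NRAMP1, the metal transporter of macrophage phagosomes, and is described after its values were seen. It had 175, 188, 192 and 175 normalized counts alone, and 165, 174, 148 and 139 in co-culture. The groups did not overlap, by a margin of about a single count between the nearest libraries, and the log2 fold change was -0.22 (SE 0.09, interval -0.41 to -0.04, limma adjusted p = 0.121). Mcoln1, a lysosomal channel that lets out iron and other cations, had 555 ± 28.9 and 556 ± 34.4 (log2 fold change 0.00, interval -0.13 to 0.14). Steap3, the endosomal reductase that prepares iron for transport, had 20 reads alone and 12 in co-culture and was not tested.

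Iron storage, export and sensing genes, 4 in all, had log2 fold changes from -0.06 to 0.04. None passed the threshold, beside 11.7% of all tested genes. Fth1, ferritin heavy chain, had 38605, 32823, 33844 and 32925 normalized counts alone. In co-culture it had 32971, 33129, 32286 and 34061. Alone library 1 was above all the others, which spread over a narrow range. The log2 fold change was -0.06 (SE 0.05, interval -0.17 to 0.05, limma adjusted p = 0.487), and -0.00 without alone library 1 (SE 0.02). Slc40a1, ferroportin, had 127 ± 6.42 and 123 ± 2.79 (log2 fold change -0.05, SE 0.07, interval -0.21 to 0.11). Aco1 and Ireb2, which encode the iron regulatory proteins, had 2748 ± 81.2 and 2786 ± 27.9, and 3887 ± 172 and 3992 ± 165, with log2 fold changes of 0.02 (interval -0.05 to 0.09) and 0.04 (interval -0.06 to 0.13). Ftl, the symbol under which the table may hold ferritin light chain, is outside the rule and had 10.1 to 27.5 normalized counts alone and 15.8 to 17.7 in co-culture. With 87 and 65 reads it gave a wide interval of -0.79 to 0.42. The log2 ratio of Fth1 to Ftl was 10.37 to 11.70 alone and 10.84 to 11.03 in co-culture. It rests on few Ftl reads and on a row that may not hold ferritin light chain, so it gives no level of the light chain.

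The ratio of the Tfrc and Fth1 transcripts was also read in each library. Iron regulatory proteins act on ferritin at translation, so this ratio does not measure their activity, which was not tested. The log2 ratio of Tfrc to Fth1 was -2.02, -1.32, -1.46 and -1.35 alone. It was -1.22, -1.19, -1.13 and -1.31 in co-culture. The ranges did not overlap, but alone library 2 and co-culture library 4 differed by little, and alone library 1 was far below the rest. The means were -1.54 ± 0.33 and -1.21 ± 0.07 (SD, n = 4 per group), a difference of 0.33 given without a test. Without alone library 1 the difference was 0.17.

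The Slc41 genes encode magnesium transporters. Slc41a3 had 311, 258, 256 and 319.6 normalized counts alone, and 223, 233, 243 and 243 in co-culture. All co-culture libraries were below the alone libraries, which fell into a higher and a lower pair. For Slc41a3 the log2 fold change was -0.27 (SE 0.09, interval -0.46 to -0.08, limma adjusted p = 0.066). It passed without alone library 1 (-0.23, limma adjusted p = 0.0378) and without alone library 2 (-0.32, limma adjusted p = 0.0485). In the authors' deposited table it had -0.22 and an adjusted p of 0.0576. Slc41a1 had 1148, 1889, 1735 and 1808 normalized counts alone, and 1784, 1754, 1672 and 1644 in co-culture. Its alone library 1 was the lowest of all, and the log2 fold change, 0.08 with an SE of 0.13 (limma adjusted p = 0.712), was -0.08 without that library (SE 0.04, limma adjusted p = 0.117).

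Spread was wider among the alone libraries, where alone library 1 lay farthest from the rest. The median coefficient of variation of the tested members was 8.02% in the alone libraries, 3.28% in the co-cultures and 3.99% in alone libraries 2 to 4. The same medians over all tested genes were 7.83%, 4.16% and 4.05%. In alone library 1, 12 of 34 members (35.3%) differed by more than 0.25 on the log2 scale from the mean of the other alone libraries, as did 31.6% of all tested genes. The deviations ran from -0.66 for Slc41a1 to 0.47 for Mt1. Slc39a14, Slc31a1, Tfrc and Slc39a10 stood at -0.47, -0.46, -0.43 and -0.42, and Slc31a2 at -0.01. In the other 7 libraries 0 to 3 members exceeded 0.25.

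**Figure D3:**
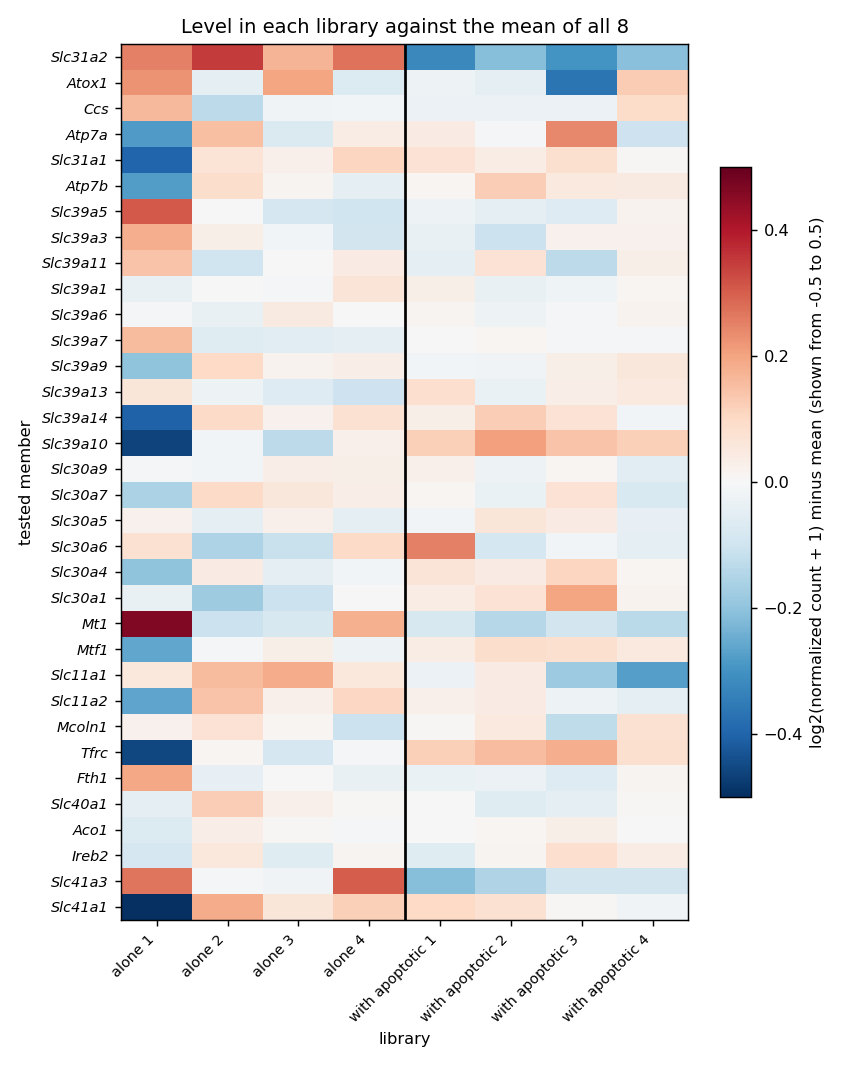
Level of the 34 tested members (rows) in each of the 8 libraries (columns), as log2(normalized count + 1) minus the mean of all 8, on a colour scale from -0.5 to 0.5. Slc31a2 is above its mean in all 4 alone libraries and below it in all 4 co-cultures, and alone library 1 carries the strongest colours for most other genes.

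Without alone library 1, limma called 4 members higher, Slc39a10, Tfrc, Slc30a1 and Slc39a13, and 2 lower, Slc31a2 and Slc41a3. These were 17.6% of the 34 tested, beside 26% of all genes tested in those 7 libraries. The background was 13.4% higher and 12.5% lower. With array weights, which count alone library 1 least (0.124), 3 were higher and 2 lower, beside 13.4% and 12.4%. Without alone library 2 there were 3 calls, Slc39a10, Slc31a2 and Slc41a3, beside 9.87% of all genes in either direction, and without alone library 4 there were 2, Slc39a10 and Slc31a2, beside 8.19%. With alone library 3 left out, Slc31a2 was the 1 member called, beside 6.54% of all genes. The same held with co-culture library 1, 2, 3 or 4 left out, beside 5.72%, 6.46%, 6.12% and 6.62%. The share of members called was below that of all genes in each of the 8 fits that left out a library. The gap was small in some, as without alone library 2 (8.82% against 9.87%). These fits share most of their libraries, so they are not independent of each other.

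**Figure D4:**
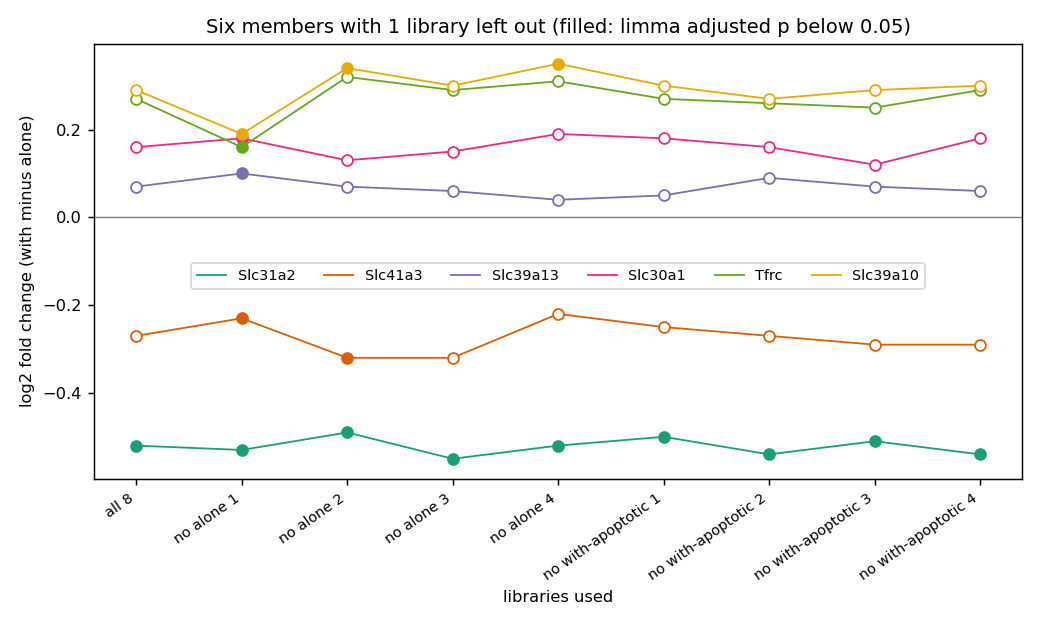
Log2 fold change (y axis) of 6 members with all 8 libraries and after dropping each in turn (x axis), with filled points for a limma adjusted p under 0.05. Slc31a2 is filled throughout, from -0.55 to -0.49, while Tfrc (0.16) and Slc30a1 (0.18) are filled only without alone library 1.

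Members that were not tested numbered 9. Slc30a8, known from insulin granules, Slc30a10, a manganese exporter, and Slc39a12 had 0 reads in all 8 libraries, which allows a level of up to 0.015 CPM (reads per M reads). This limit of 3 reads covers counting error only. Slc30a2, Slc30a3, Slc39a2, Slc39a4, Mt2 and Steap3 had 1 to 32 reads over all 8 libraries. The filter fell in a wide gap: Steap3, the highest untested member, had a mean of 3.96 normalized counts, and Mt1, the lowest tested, 117. The members together took 0.375 to 0.379% of the reads in the alone libraries and 0.377 to 0.38% in the co-cultures. Fth1 made up 35.1 to 41.3% of those reads alone and 34 to 35.8% in co-culture, and Tfrc 10.2 to 14% and 14.5 to 15.6%.

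Further genes of metal and heme handling came from a list outside the rule, drawn up with earlier results of these data known. By limma, 3 of the 37 tested were higher and 0 lower, beside the 6.36% and 5.31% of all genes. At an unadjusted p under 0.05, 4 were higher and 5 lower (10.8% and 13.5%, beside 13.7% and 12.8% of all genes), and edgeR and DESeq2 also called 3 higher and 0 lower. Hmox1, heme oxygenase, which breaks down heme and sets its iron free, rose from 2283, 2219, 2205 and 2244 normalized counts alone to 2933, 2930.3, 2846 and 3053. The groups were far apart, and the replicates were close in both. The log2 fold change was 0.39 (SE 0.03, interval 0.32 to 0.47, limma adjusted p = 7.82e-05), a rise of 31.4%, and stayed between 0.38 and 0.41 with any library left out. Slc46a1, a proton-coupled folate transporter that can also carry heme, rose from 225, 185, 186 and 208 to 256, 241, 252 and 249.5 normalized counts. The groups did not overlap, and the log2 fold change was 0.32 (SE 0.08, limma adjusted p = 0.0233). Prnp, the copper-binding prion protein, rose from a mean of 950.4 ± 37 to 1069 ± 48.4 (log2 fold change 0.17, SE 0.05, limma adjusted p = 0.0423).

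The calls of Slc46a1 and Prnp were lost in fits with fewer libraries, while the log2 fold changes stayed between 0.28 and 0.37 and between 0.14 and 0.19. Slc46a1 did not pass without alone library 2 or 3 or any of the co-culture libraries (limma adjusted p = 0.0524 to 0.0742). Prnp passed without alone library 1 (limma adjusted p = 0.00106) and in no other fit that left out a library (0.0617 to 0.124). Ncoa4, Fbxl5 and Sod1, named whatever their values, did not pass. Ncoa4, the receptor that delivers ferritin to the lysosome, had 2448 ± 169 and 2406 ± 88.7 (log2 fold change -0.02, SE 0.05). Fbxl5, an iron-sensing part of the ubiquitin ligase that degrades the product of Ireb2, had 755 ± 26.4 and 772 ± 11.5 (log2 fold change 0.03, SE 0.04). Sod1, copper-zinc superoxide dismutase, had 4304 ± 502 and 4010.2 ± 218 (log2 fold change -0.10, SE 0.07). Its level was 5046 in alone library 1 and 3933 to 4128 in the other alone libraries, and the change was -0.02 without alone library 1.

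Slc48a1, Cnnm3 and Tfr2 are given after their values were seen, as the list's genes just outside the threshold. Slc48a1, which moves heme out of endolysosomes, had 465, 470.2, 467 and 419.9 normalized counts alone, and 418, 375, 391 and 419.8 in co-culture (log2 fold change -0.18, SE 0.06, limma adjusted p = 0.0768). Alone library 4 and co-culture library 4 nearly met. Cnnm3, of a magnesium transport family, had 974 ± 75.1 and 856 ± 19.1 (log2 fold change -0.18, SE 0.06, limma adjusted p = 0.0661). Tfr2, the second transferrin receptor, had 177 ± 15.1 and 149 ± 6.14 (log2 fold change -0.24, SE 0.08, limma adjusted p = 0.0825). Without alone library 1, 4 genes of this list were higher and 4 lower, Slc48a1 (limma adjusted p = 0.0389) and Cnnm3 (8.4e-05) among the latter, beside 13.4% and 12.5% of all genes in that fit.

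**Figure D5:**
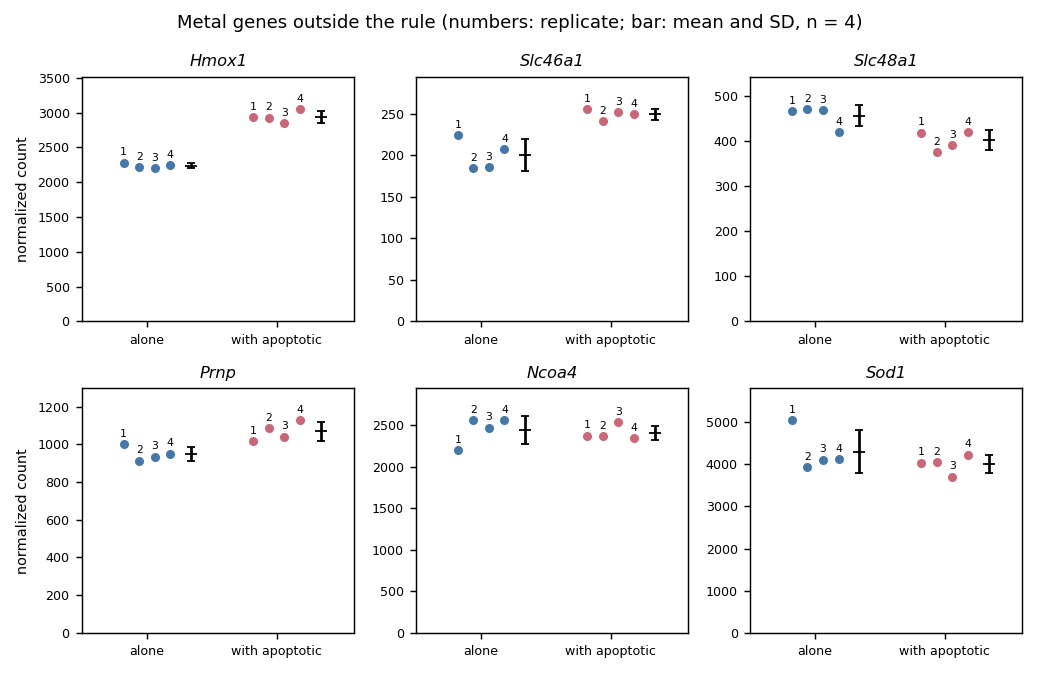
Normalized counts in each library (y axis, from 0; numbers are replicate numbers) for 6 metal and heme genes outside the rule, with mean and SD of 4 libraries per group. Hmox1 separates at 2205 to 2283 against 2846 to 3053, while Ncoa4 and Sod1 overlap.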

How the data were processed

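Counts of hamster genes were deposited in 1 table. Its 8 library columns hold a signal that the authors made by dividing read counts by a size factor per library; whole reads were recovered for 100% of values within 0.01 reads. Per the submitters' processing notes, the tools were FastQC, STAR, featureCounts and DESeq2, with no versions. Genome build, annotation and strand setting: not given in the sources used here. The authors' deposited log2 fold changes, standard errors, test score and p-values were used only where named. The replicate number and the letters AC in a column name tied it to its sample; the labels do not explain a further prefix, GFP. A row without a gene name (0.14 to 0.176% of reads) was left out.

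Genes whose mean reached 10 normalized counts were tested with limma 3.58.1 in R 4.3.3 (trend, group as the only term) on log2(normalized count + 1), a scale that understates the change of low genes. Benjamini-Hochberg adjustment ran over all genes. Alternatives were edgeR 4.0.16 and DESeq2 1.42.0 on the recovered reads, TMM scaling, pseudocounts of 0.5 and 4, no filter, a mean of at least 100, array weights, a replicate block and leaving out each library. The limma, edgeR and DESeq2 fits were also run on simulated data, in which no library stood apart as alone library 1 does. Figures used matplotlib 3.10.9.

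The members and lists were chosen with earlier results of these data known. Named members were every called one, those with an adjusted p from 0.05 to 0.10, a fixed set, and the highest and lowest mean of the Slc30, Slc39 and Slc41 families. All 43 symbols were found in the RefSeq table of assembly CriGri-PICRH-1.0. Lists of fibroblast, T cell, myeloid and epithelial markers were summed per library; 1 listed marker is not reported here by name. Of 7 myeloid markers, 5 were in the table, at 37 to 71.7 normalized counts in sum alone and 49.4 to 65.9 in co-culture. No sequences or transcript lengths were used, so levels of different genes are not compared.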

Additional observations from a re-analysis of the deposited data

Results flagged for a closer look

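Of 94 groups of 4 libraries, 5 had a highest or lowest library so far from its nearest neighbour, as a share of the group's range, that it passed Dixon's 95% critical value, which chance exceeds in about 1 of 20 groups. Ccs, the copper chaperone of superoxide dismutase, had 956 normalized counts in co-culture library 4 and 878 to 879 in the others. Alone library 1 had 862 of Slc39a14 (others 1160.0 to 1219.7) and 8237 of Slc39a7 (others 7068 to 7147). Slc48a1, the heme transporter gene, had 419.9 in alone library 4 and 465 to 470.2 in the others. Cnnm3, of a magnesium transport family, had 885 in co-culture library 3 and 845 to 849 in the others.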

How the results depend on the processing

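Of 578 values of the 34 tested members under an alternative, 523 kept the sign and side of the threshold of the main limma fit. A further 14 passed where they had not in that fit, some of them with all 8 libraries (DESeq2 and array weights). None lost a call, which only Slc31a2, the 1 member called in the main fit, could have done. Most of the 523 were values of members called in neither fit. A further 41 changed sign, all in genes called neither way. With a library left out, the log2 fold changes of these ran from -0.04 to 0.05 (Ccs), -0.03 to 0.05 (Mcoln1), -0.09 to 0.04 (Slc11a2), -0.03 to 0.09 (Slc30a6), -0.07 to 0.02 (Slc30a7), -0.02 to 0.15 (Slc31a1), -0.02 to 0.01 (Slc39a1), -0.01 to 0.16 (Slc39a14), -0.11 to 0.03 (Slc39a5), -0.01 to 0.01 (Slc39a6), -0.02 to 0.05 (Slc39a7), -0.04 to 0.06 (Slc39a9) and -0.08 to 0.16 (Slc41a1). With array weights the sign changed for Ccs (0.03), Slc31a1 (-0.00), Slc39a5 (0.03), Slc39a9 (-0.03), Slc41a1 (-0.04) and, outside the rule, Ftl (0.01). Slc39a7 was -0.00 by edgeR and DESeq2 and -0.01 under TMM scaling, where Mcoln1 was -0.00. Beyond the weight or the left-out library itself, the cause was not tested. Slc31a2 was called in all 17 alternatives (adjusted p = 9.62e-10 to 0.00343). DESeq2 called 2 members higher. With array weights, which gave alone library 1 a weight of 0.124, 3478 genes, 3 members higher and 2 lower, and 4 other metal genes higher and 3 lower were called. Leaving out a library gave 772 to 3505 called genes, 0 to 4 members higher and 1 to 2 lower, and 1 to 4 other metal genes higher and 0 to 4 lower. The most in each case came without alone library 1, which for members lower was matched without alone library 2. Correlations of deviations gave no sign that replicate numbers pair the libraries (-0.0898 to 0.0682 for equal numbers, and the strongest, 0.172, for unequal ones). Such correlations cannot exclude that libraries of equal number shared an origin. With a replicate block, 898 genes and 2 other metal genes were called, without Prnp (adjusted p = 0.104), and the calls of members were the same. Prnp was also not called under TMM scaling (0.0567) or with no filter (0.0539). Low read counts of the genes themselves limit Mt2, Steap3 and Ftl.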
